A study of Mus musculus with 6 samples.

Results

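The mRNA levels of 7 genes that move cholesterol and plant sterols through the enterocyte were examined in the middle small intestinal mucosa of mice with and without alkaline sphingomyelinase (alk-SMase). They were chosen by name for their place in this pathway: the uptake proteins Npc1l1 and Scarb1, the exporters Abcg5, Abcg8 and Abca1, the esterifying enzyme Soat2 and the nuclear receptor Nr1h3. All 7 could be read, among 12402 genes whose row in the deposited table could be restored. Their identifiers follow the GENCODE M21 annotation of the mouse genome GRCm38 (mm10), and their levels are FPKM, in which fragments are divided by transcript length and by the reads mapped in that library, so that levels of different genes can be set side by side per length.

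The absorptive cell takes free sterol from the gut lumen at its brush border through NPC1L1, the target of the drug ezetimibe. ACAT2, the product of Soat2, joins the cholesterol to a fatty acid so that it can be packed into chylomicrons, while ABCG5 and ABCG8 work as one heterodimer that pumps plant sterols and surplus cholesterol back into the lumen. ABCA1 passes cholesterol across the basolateral membrane to apolipoprotein A-I, SR-BI (Scarb1) binds HDL and other lipoproteins, and LXRα (Nr1h3) is a receptor for oxysterols whose known targets include Abca1, Abcg5 and Abcg8. Alk-SMase hydrolyses the sphingomyelin of food and bile in the gut lumen, and luminal sphingomyelin is known to hold back cholesterol absorption.

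The animals were C57BL/6 mice, 3 KO and 3 WT, each with 1 library of 50 bp single-end reads. Values by library are given throughout in the order K79S, K82S, K86S for KO and W83S, W89S, W90S for WT. In the KO mice exon 2 of Enpp7, the gene of alk-SMase, had been removed with Cre-loxP, which shifts the reading frame and brings an early stop. The mice ate standard pellets, no treatment was named, and their age and sex were not given in the sources used here. Which KO mouse was matched with which WT mouse was not given either. Whole-gene levels of Enpp7 were 605, 129 and 669.7 FPKM in the KO libraries against 406, 667 and 495 FPKM in the WT libraries, and these values do not check the genotype.

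Abcg5 and Abcg8 are neighbours on chromosome 17 and are read in opposite directions. Abcg5 lies on the minus strand from 84658234 to 84683011 and Abcg8 on the plus strand from 84676302 to 84700333. In RefSeq 1 start site of Abcg8 lies 110 bases from that of Abcg5. The promoter windows of these 2 starts (250 bases before the start to 50 bases after it) share 209 bases, chr17:84682962-84683170. The windows are shown because these 2 subunits share them and were described together, each 5′ to 3′ on the strand of its gene, with AGATAA or its complement TTATCT, the core letters that GATA factors recognise, in capitals. They cover chr17:84682962-84683261 for Abcg5 and chr17:84682871-84683170 for Abcg8 (GRCm38.p6).
Abcg5: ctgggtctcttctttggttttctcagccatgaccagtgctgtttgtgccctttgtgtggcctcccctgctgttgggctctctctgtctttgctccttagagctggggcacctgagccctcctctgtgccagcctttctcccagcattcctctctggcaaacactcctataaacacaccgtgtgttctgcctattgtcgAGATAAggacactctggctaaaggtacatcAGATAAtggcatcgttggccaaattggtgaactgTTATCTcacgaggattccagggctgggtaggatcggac
Abcg8: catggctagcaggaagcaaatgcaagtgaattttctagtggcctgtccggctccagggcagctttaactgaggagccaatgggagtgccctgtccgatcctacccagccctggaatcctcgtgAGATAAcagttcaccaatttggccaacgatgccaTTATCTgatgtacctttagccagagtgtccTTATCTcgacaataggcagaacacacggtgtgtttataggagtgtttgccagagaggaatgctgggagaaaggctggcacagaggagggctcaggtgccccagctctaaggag
The 3 matches lie in the shared stretch and are therefore the same 3 sites seen from both strands. At least 3 matches were found in 0.107% of the 32851 mouse promoter windows of 300 bases, and at least 1 in 11.2%. RefSeq holds another Abcg8 window, chr17:84676052-84676351, with 0 matches, and the windows of Npc1l1, Abca1 and Nr1h3 had 0 as well. The Abcg8 window shown was the one with matches, so these shares give no independent support. The direct repeat to which LXR with RXR binds, searched on both strands as AGGTCA repeated after any 4 bases, was found in 0.0152% of all windows, and TCACNCCAC, a sterol response element to which SREBP binds, in 1.24%. Neither was found in the 7 windows of the 5 genes that RefSeq's table held (Npc1l1, Abcg5, Abcg8, Abca1 and Nr1h3). A match or its absence in so short a window says nothing of binding.

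The other 5 genes lie apart from each other. Npc1l1 is on chromosome 11 from 6211013 to 6230143 (minus strand) and is annotated with 1 transcript. Soat2 is on chromosome 15 from 102150526 to 102163469 (plus strand), Abca1 on chromosome 4 from 53030787 to 53159895 (minus strand), Scarb1 on chromosome 5 from 125277087 to 125341094 (minus strand) and Nr1h3 on chromosome 2 from 91184061 to 91202834 (minus strand). An alternative start of Abcg8 places 6710 bases of it inside Abcg5, of which 82 are exonic in both, 3.02% of the exonic bases of Abcg5 and 2.19% of those of Abcg8. The handling of strand was not stated, so reads from these 82 bases could belong to either gene. Nr1h3 shares 34 exonic bases with the transcript Gm13783 on its own strand.

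Some libraries stood apart. Genes of the gastric gland and pit summed to 38524 FPKM in W83S, 7.97% of all its FPKM, and to at most 5.24 FPKM in any other library, for 6 of 10 listed genes that could be read. The Y chromosome genes Ddx3y and Eif2s3y had 0.0279 FPKM and a listed 0 in K79S, against 2.93 to 4.01 FPKM and 5.69 to 8.16 FPKM in the other 5 libraries. K82S and W89S held the 2 lowest levels of 6 of 7 proximal small intestine genes, as given with Abca1 and Scarb1. The epithelium itself was present in every library, with villin (Vil1) at 897 to 1445 FPKM and 8 of 8 absorptive enterocyte genes at 12757 to 23279 FPKM in sum. Of 12 marker lists, 3 did not overlap between the genotypes, where 17.2% of single rows tested also had no overlap. Crypt proliferation genes summed to 7.998 to 32.8 FPKM for KO against 33.5 to 78.8 FPKM for WT (4 of 6 genes read). Olfm4 was the largest part of this sum in every library, with 3.98 to 20.1 FPKM for KO against 24.8 to 61.3 FPKM for WT. Mki67, Top2a and Cdk1 overlapped, at 5.24, 5.45 and 1.97 FPKM in K82S against 3.82, 3.33 and 1.53 FPKM in W83S. Hepatocyte genes summed to 4.93 to 9.86 against 27.4 to 92.0 FPKM (3 of 5) and T cell genes to 155 to 223 against 72.5 to 114 FPKM (6 of 6). Of the T cell list only Trac overlapped, at 4.40 to 11.8 FPKM for KO against 4.11 to 4.95 FPKM for WT. The part of these markers, of sex and of gastric RNA in the results was not tested, and in tissue RNA fewer cells of a type cannot be told apart from less RNA per cell.

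None of the 7 genes differed between KO and WT mice by the test used. The whole table was fitted with limma on log2(FPKM + 1), and a gene was called at a Benjamini-Hochberg adjusted p-value under 0.05 together with a fold change above 1.5 or below 2/3. By this rule 1 of 13089 rows was called (0.00764%), and 0 of the 7. At an unadjusted p-value under 0.05 it was also 0 of 7, where 12.5% of all rows passed (2.87% higher and 9.64% lower in KO), and the genotypes overlapped in all 7 genes, where 17.2% of all rows had none. The median log2 fold change of the 7 genes was 0.037, with 4 positive and 3 negative, beside -0.061 over all rows tested.

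**Figure D1:**
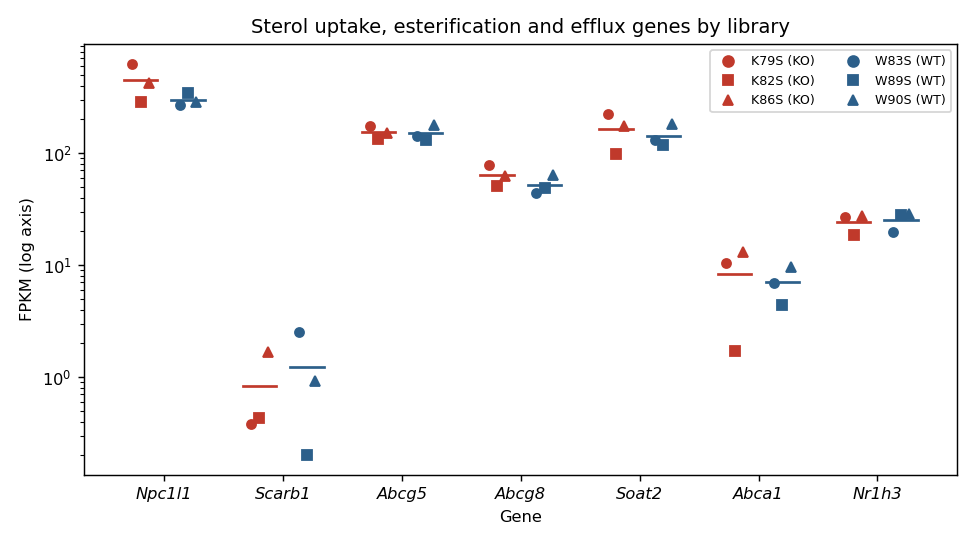
FPKM of the 7 genes (log axis) in each library, KO in red and WT in blue, with a bar at the mean of each genotype (3 libraries). Levels run from 629 FPKM for Npc1l1 in K79S to 0.2001 FPKM for Scarb1 in W89S, and in each gene the KO and WT points overlap.

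Npc1l1, the transporter that starts sterol absorption, was the most abundant of the 7 in every library. It had 629, 285 and 425 FPKM in the KO libraries against 271, 346 and 283 FPKM in the WT libraries. K79S and K86S lay above all 3 WT libraries, while K82S lay between them. The means were 447 ± 173 FPKM for KO against 300.2 ± 40.4 FPKM for WT (SD, n = 3 each), and the spread was wider among the KO libraries (2.21-fold from lowest to highest) than among the WT libraries (1.28-fold). The log2 fold change was 0.51 (standard error 0.31, 95% interval -0.24 to 1.25, adjusted p = 0.492 from limma), the largest of the 7, and p was 0.2 in the two-sided exact permutation test, where 0.1 is the smallest that 3 against 3 libraries allow. It kept its sign in all 16 alternatives, though those that change only the filter on low values could not move it. It was 0.22 without K79S and 0.79 without K82S (unadjusted p = 0.0175 and adjusted p = 0.105 from limma). In the fit without K82S 3284 of 12764 rows had an unadjusted p-value under 0.05, 523 of them higher in KO. That fit called 9.28% of rows, 0.4% higher and 8.88% lower in KO.

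Scarb1, the HDL receptor SR-BI, was the least abundant and the most variable of the 7. Its levels were 0.376, 0.432 and 1.66 FPKM in the KO libraries against 2.54, 0.2001 and 0.921 FPKM in the WT libraries. W83S, the library with gastric RNA, was 12.7 times W89S within the same genotype, and only K86S and W83S exceeded 1 FPKM. The means were 0.823 ± 0.726 FPKM for KO against 1.22 ± 1.196 FPKM for WT (SD, n = 3 each). The log2 fold change of -0.21 (standard error 0.45, 95% interval -1.28 to 0.85, adjusted p = 0.862 from limma) was smaller than its error. It ran from -0.044 without K79S and -0.073 without K82S to -0.59 without W89S. Without either K86S or W83S the filter on low values removed the gene.

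Abcg5 and Abcg8 encode the 2 subunits of the luminal sterol pump. Abcg5 had 175, 134 and 152 FPKM in the KO libraries against 142, 132 and 177 FPKM in the WT libraries. It was the most even of the 7 genes, with 1.34-fold between the lowest and the highest library. Its means of 154 ± 20.7 FPKM for KO against 150.1 ± 23.6 FPKM for WT (SD, n = 3 each) gave a log2 fold change of 0.037 (standard error 0.20, 95% interval -0.43 to 0.50, adjusted p = 0.948 from limma). In this fit the interval left out a change of 1.5-fold in either direction. When any 1 library was left out it reached 1.5-fold in at least 1 direction. It was, for example, -0.615 to 0.621 without W83S and -0.397 to 0.716 without W90S.

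Abcg8 had 78.1, 51.1 and 62.5 FPKM in the KO libraries against 43.9, 48.5 and 64.0 FPKM in the WT libraries. K79S was the highest and W83S the lowest, and the other 4 libraries were mixed. The means were 63.9 ± 13.6 FPKM for KO against 52.1 ± 10.5 FPKM for WT (SD, n = 3 each), a log2 fold change of 0.29 (standard error 0.23, 95% interval -0.26 to 0.83, adjusted p = 0.604 from limma). The sign was the same in all 16 alternatives, and the value ran from 0.10 to 0.47. Alternatives that change only the filter on low values could not move it.

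Within a library the 2 subunits can be compared without any scaling between libraries. The ratio of Abcg5 to Abcg8 was 2.24, 2.62 and 2.43 in the KO libraries against 3.24, 2.72 and 2.76 in the WT libraries. All KO ratios thus lay below all WT ratios, with means of 2.43 ± 0.189 and 2.91 ± 0.290 (SD, n = 3 each). The difference of the log2 ratios was -0.25 (exact two-sided permutation test, p = 0.1, the smallest possible), and -0.17 to -0.31 when each library was left out in turn. This ratio was singled out after its values had been seen, and among single rows 17.2% also had no overlap. The share among ratios of 2 genes within a library was not computed. The balance of uptake against export, Npc1l1 less the mean of Abcg5 and Abcg8 on the log2(FPKM + 1) scale, was 2.42, 1.77 and 2.11 in the KO libraries against 1.76, 2.10 and 1.40 in the WT libraries. Here the genotypes overlapped, and the difference of 0.34 had p = 0.2 in the exact permutation test. It was 0.17 without W90S, 0.19 without K79S, 0.51 without K82S and 0.52 without W89S.

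**Figure D2:**
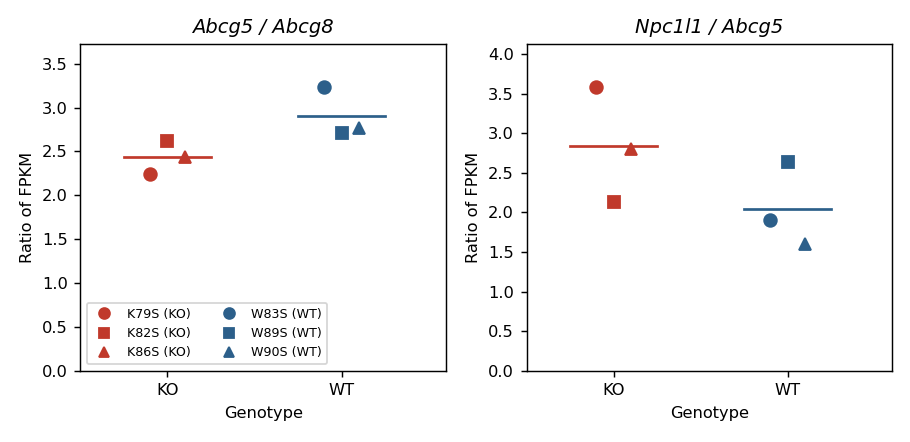
Ratio of FPKM of Abcg5 to Abcg8 (left) and of Npc1l1 to Abcg5 (right) in each library, with a bar at the mean of each genotype. The KO libraries reach at most 2.62 on the left where the WT libraries start at 2.72, while on the right the genotypes overlap, with K79S highest at 3.59.

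Soat2, whose enzyme esterifies absorbed cholesterol, had 224, 98.97 and 173 FPKM in the KO libraries against 130.02, 117 and 182 FPKM in the WT libraries. The highest and the lowest library were both KO, 2.26-fold apart. With means of 165 ± 62.7 FPKM for KO against 143 ± 34.1 FPKM for WT (SD, n = 3 each) the log2 fold change was 0.16 (standard error 0.34, 95% interval -0.65 to 0.96, adjusted p = 0.867 from limma). It rose to 0.48 without K82S and turned to -0.10 without K79S. K79S, the library with almost no Y chromosome RNA, thus held the highest level of Npc1l1, Abcg8 and Soat2.

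Abca1, the exporter that loads apolipoprotein A-I, had 10.4, 1.71 and 13.0 FPKM in the KO libraries against 6.92, 4.42 and 9.66 FPKM in the WT libraries. K82S was 7.63 times lower than K86S of the same genotype, and the KO libraries enclosed the whole range of the WT libraries. The means were 8.37 ± 5.92 FPKM for KO against 7.001 ± 2.62 FPKM for WT (SD, n = 3 each). The log2 fold change of -0.028 (standard error 0.63, 95% interval -1.53 to 1.48, adjusted p = 0.988 from limma) rested on K82S, without which it was 0.71 (adjusted p = 0.211 from limma). Macrophages also use Abca1 and Nr1h3, and macrophage genes (5 of 7 read) summed to 45.5 to 74.9 FPKM for KO against 46.3 to 58.6 FPKM for WT. The sum was highest in K82S, where Abca1 was lowest, and next highest in K86S (71.6 FPKM), where Abca1 was highest. The part of macrophages in these levels was not tested.

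Nr1h3, the gene of LXRα, had 26.9, 18.7 and 27.6 FPKM in the KO libraries against 19.6, 27.8 and 28.5 FPKM in the WT libraries. In each genotype 1 library, K82S and W83S, was low and the other 2 lay close together. The means were 24.4 ± 4.95 FPKM for KO against 25.3 ± 4.99 FPKM for WT (SD, n = 3 each), a log2 fold change of -0.052 (standard error 0.23, 95% interval -0.59 to 0.49, adjusted p = 0.936 from limma).

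**Figure D3:**
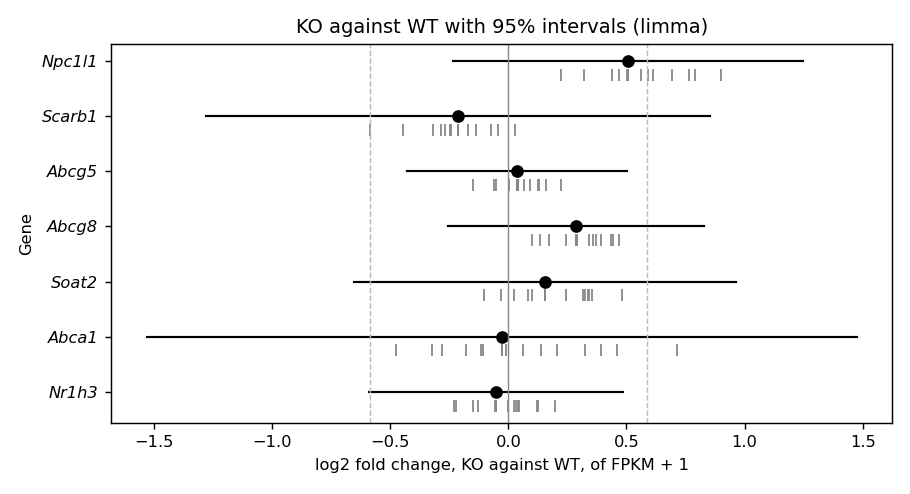
log2 fold change of FPKM + 1, KO against WT, for the 7 genes (black points) with 95% intervals from limma (black lines), and the values under the alternative settings (grey ticks). Dashed lines mark 1.5-fold in either direction, and all 7 intervals include 0.

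Between genes the levels were well ordered. Npc1l1 came first with a mean of 373 FPKM over the 6 libraries, followed by Soat2 (154 FPKM), Abcg5 (152 FPKM), Abcg8 (58.0 FPKM), Nr1h3 (24.8 FPKM), Abca1 (7.69 FPKM) and Scarb1 (1.02 FPKM). Of the 6 pairs of neighbours in this order, 5 had the same order in all 6 libraries (exact two-sided sign-flip permutation test over the 6 libraries, p = 0.03125, the smallest possible, adjusted p = 0.0375 over the 6 pairs). The order was taken from these same libraries, so the p-values give no independent support for it. Soat2 and Abcg5 did not differ beyond their spread, with Soat2 higher in 3 of 6 libraries (p = 0.844 in the same exact test). The transporter for uptake thus stood 1.603 to 3.59 times above Abcg5, and Abcg5 stood 2.24 to 3.24 times above its partner Abcg8.

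Levels of Abca1 and Scarb1 were set beside markers of position along the small intestine. The score used was the mean log2(FPKM + 1) of 7 proximal genes, among them Gata4, Lct (lactase) and Fabp1 (liver fatty acid-binding protein), less that of 4 distal genes, among them Slc51a and Slc51b (the basolateral bile acid transporter). It was -1.52, -3.37 and -0.21 in the KO libraries against -0.36, -2.30 and -0.52 in the WT libraries, so that the KO libraries spanned the wider range and enclosed the WT libraries. Lactase, for example, had 76.3 FPKM in K82S and 163 FPKM in W89S, against 243 to 489.8 FPKM in the other 4. Not all markers followed this order: the proximal gene Dcxr was highest in W89S (40.1 FPKM) and the distal gene Clca4b lowest there (792.9 FPKM), and the summed distal genes reached 1712 FPKM in K79S, above 1681 FPKM in W89S.

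Abca1 was lowest in K82S and next lowest in W89S, the 2 libraries with the lowest score, and highest in K86S, which had the highest. Over the 6 libraries Pearson's r was 0.88 (exact permutation p = 0.025, adjusted p = 0.175 over the 7 genes) and Spearman's rho 0.77 (exact permutation p = 0.103, adjusted p = 0.36). Without K82S and W89S r was -0.044, so the relation rested on those libraries. Scarb1 was highest in the 3 libraries with the highest score, with r = 0.77 (exact permutation p = 0.0708, adjusted p = 0.248) and rho 0.77 (exact permutation p = 0.103, adjusted p = 0.36), and r = 0.84 without K82S and W89S. For the other 5 genes r lay between 0.059 (Npc1l1) and 0.61 (Soat2), with exact permutation p-values of 0.21 to 0.897 (adjusted p of 0.474 to 0.897) and rho between -0.086 and 0.49 (adjusted p of 0.622 to 1.00). Without K82S and W89S r was negative for all 5, at -0.75 for Npc1l1 and Soat2, -0.69 for Abcg8, -0.64 for Abcg5 and -0.23 for Nr1h3. None of the 7 relations passed the adjustment, and 3 libraries in each genotype were too few to test them within a genotype. Gata4, which is part of the score and whose protein binds GATA motifs, had 35.6, 11.3 and 38.3 FPKM in the KO libraries against 47.2, 25.4 and 34.3 FPKM in the WT libraries. Abcg5 was also lowest in K82S and W89S, but only by the small margin given above. Abcg8, whose window shown above holds the same GATA matches, was lowest in W83S (43.9 FPKM), where Gata4 was highest. A link of Gata4 to either gene was not tested.

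**Figure D4:**
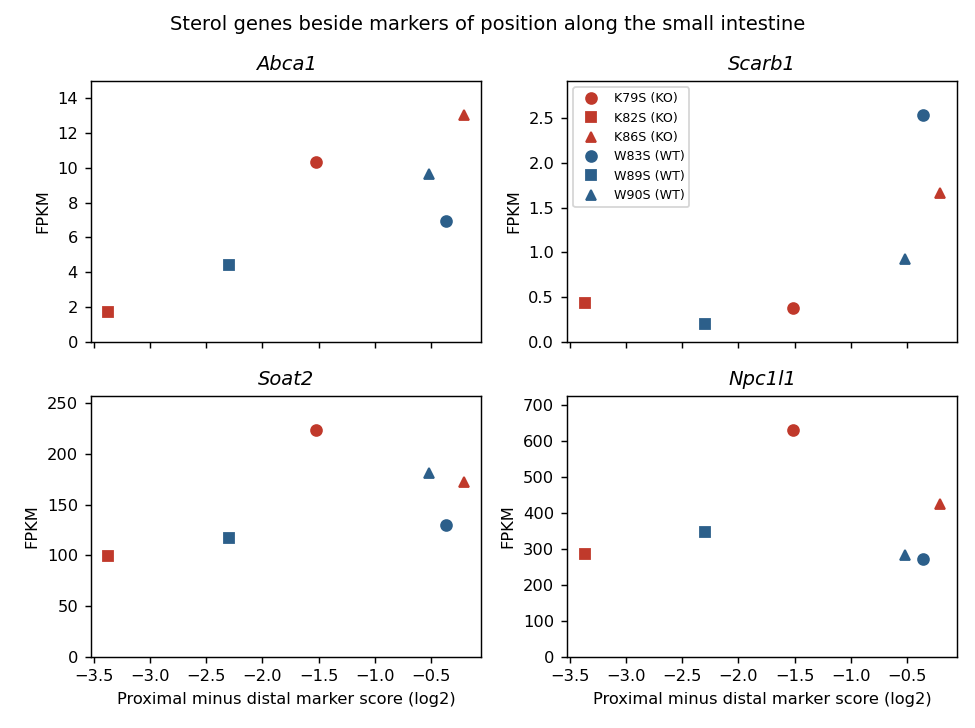
FPKM of Abca1, Scarb1, Soat2 and Npc1l1 in each library against the proximal minus distal marker score (log2). Abca1 climbs from 1.71 FPKM in K82S, at a score of -3.37, to 13.0 FPKM in K86S, at -0.21, while Npc1l1 shows no such order and peaks in K79S.

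With the score as a covariate, a setting added after the values had been seen, 0 of the 7 genes passed in limma (1 of 13089 rows called). At an unadjusted p-value under 0.05 it was also 0 of 7, where 2754 of 13089 rows passed. The log2 fold changes of Npc1l1 and Abcg8 were then 0.56 and 0.34, those of Soat2 and Abca1 0.32 and 0.39, and those of Abcg5, Scarb1 and Nr1h3 0.093, 0.030 and -0.0024. The adjusted p-values from limma lay between 0.368 (Npc1l1) and 0.997 (Nr1h3).

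A wider list of 44 genes of sterol handling gave the same count of calls. Of these, 40 could be read and 38 passed the filter on low values, and 0 of 38 were called in either direction. At an unadjusted p-value under 0.05 it was also 0 of 38, where 12.5% of all rows passed. Their median log2 fold change was 0.12, with 28 positive and 10 negative, beside -0.061 over all rows (5538 positive and 7551 negative of 13089). In 2 of the 38 the lowest KO library exceeded the highest WT library (5.9% of all rows), and in 0 the reverse held (11.3% of all rows). These 2 were Numb, an adaptor for the endocytosis of NPC1L1, with 26.3, 20.1 and 24.8 FPKM in the KO libraries against 17.4 to 19.4 FPKM in WT, and Abca7, a lipid transporter related to ABCA1, with 14.3, 9.36 and 9.24 FPKM against 6.93 to 8.39 FPKM. They were named after their values had been seen, and neither was called (adjusted p = 0.395 and 0.393 from limma).

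Of the genes that move and store sterol inside the cell, 11 were tested, with a median log2 fold change of 0.079. Scp2, a sterol carrier of peroxisomes and cytosol, had 112 ± 17.9 FPKM for KO against 109 ± 19.3 FPKM for WT (SD, n = 3 each). Stard4, a cytosolic cholesterol carrier, had 32.9 ± 7.79 and 25.4 ± 6.38 FPKM, and Osbp, which exchanges sterol at contact sites of the endoplasmic reticulum and the Golgi, 23.1 ± 4.195 and 21.9 ± 2.13 FPKM. Soat1, the ubiquitous relative of Soat2, had 0.913 FPKM on average and did not pass the filter. Of the mRNAs of the 2 esterifying enzymes that of Soat2 was thus by far the more abundant, and protein was not measured here.

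Membrane partners of Npc1l1 and Scarb1 had a median of 0.17 over 8 genes tested. Slc9a3r1, the scaffold NHERF1, had 1699 ± 276 FPKM for KO against 1343 ± 271 FPKM for WT (SD, n = 3 each). Pdzk1, the adaptor that holds SR-BI at the membrane, had 172 ± 37.4 and 151 ± 28.0 FPKM, and the GTPase Cdc42 117 ± 19.3 and 110.2 ± 3.36 FPKM. Pdzk1 was thus abundant in every library while Scarb1 was near the limit of the filter.

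Partners and targets of LXR had a median of 0.22 over 7 genes. Lpcat3, which remodels phospholipids, had 79.7 ± 12.3 FPKM for KO against 63.8 ± 6.53 FPKM for WT (SD, n = 3 each), the receptor partner Rxra 35.3 ± 3.24 and 28.9 ± 3.92 FPKM, and Smpdl3a, a phosphodiesterase, 57.1 ± 21.9 and 57.5 ± 6.46 FPKM. Transcription factors of the pathway had a median of -0.0026 over 5 genes. Hnf4a, an activator of many enterocyte genes, had 203 ± 43.5 and 163 ± 46.3 FPKM, Gata4 28.4 ± 14.9 and 35.7 ± 10.97 FPKM, and Srebf2, the regulator of cholesterol synthesis and uptake, 18.9 ± 4.84 and 19.8 ± 5.81 FPKM.

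Carriers and acceptors of sterol had a median of 0.22 over 7 genes. Apoa1, the acceptor for ABCA1, had 12984 ± 1631 FPKM for KO against 13901 ± 696 FPKM for WT (SD, n = 3 each). Apoa4, a chylomicron apolipoprotein, had 6353 ± 3837 and 5707 ± 2053 FPKM, and Mttp, which loads lipid onto apolipoprotein B, 375 ± 132 and 355 ± 123 FPKM.

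**Figure D5:**
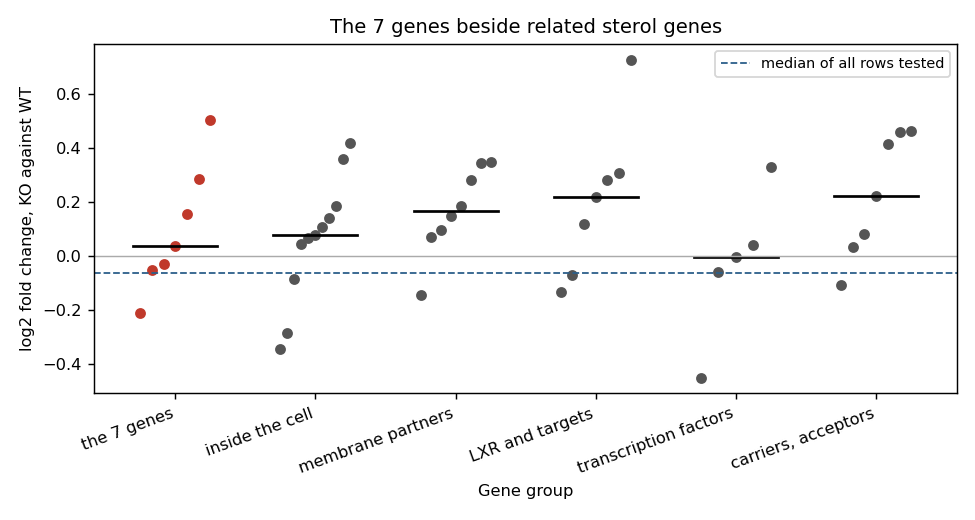
log2 fold change of FPKM + 1, KO against WT, of the 7 genes (red) and of the 38 related genes tested (grey) in 5 groups, with a black bar at the median of each group and a dashed line at the median of all 13089 rows (-0.061). Points lie on both sides of 0 in every group, from -0.45 (Gata4) to 0.73 (Mylip).

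For each of the 7 genes the readable genes with a mean of at least 10 FPKM were ranked by the Pearson correlation of log2(FPKM + 1) over the 6 libraries. This likeness is a description over 6 points that share their libraries, and between 28 and 161 genes of about 4536 exceeded 0.9. Nearest to Npc1l1 were Aqp1 (r = 0.99), Slc22a4 (0.98) and Slc6a19 (0.98), all high in K79S. Nearest to Abca1 were Slc7a8 (1.00), Ms4a10 (1.00) and Bst1 (0.99), all lowest in K82S and next lowest in W89S. Slc7a8, a basolateral amino acid transporter, had 116, 26.5 and 142 FPKM in the KO libraries against 78.4, 56.0 and 102 FPKM in the WT libraries, the same order of libraries as Abca1.

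Soat2 was most like Tepsin (0.99), C2cd2l (0.98) and Ppp1r16a (0.98), Abcg8 most like Zdhhc9 (1.00), Tspan7 (0.98) and Fzd5 (0.98), and Abcg5 most like Mical1 (0.99), Apeh (0.96) and Fxr2 (0.95). Nr1h3 was most like Dnm1 (1.00), Fkbp1a (0.98) and Fmo4 (0.98), and Scarb1 most like Gm2999 (0.97), mt-Tm (0.97) and Pon2 (0.97). Among the 7 genes themselves, Soat2 and Abcg5 were the closest pair (r = 0.92), followed by Soat2 and Abca1 (0.88), Soat2 and Abcg8 (0.87) and Abcg5 and Abcg8 (0.85). Scarb1 was the gene least like the rest, with r between -0.32 (Npc1l1) and 0.43 (Abca1).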

How the data were processed

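The authors cleaned 50 bp single-end Illumina reads (trim-galore) and ran HISAT2, against mm10, and StringTie. They deposited FPKM, 1 value per gene and library, in 6 columns, with 0 columns left unmapped. Tool versions, annotation and strand handling were not given in the sources used here, nor whether edgeR normalization touched these values.

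In the deposited table identifiers stood beside values of other genes. The identifiers, ranked by K79S, were paired with rows ranked by W83S at rank offsets of 3 to -2, down to rank 12482. This settled 12402 of 22700 identifiers, and the other 10298 were not used as labels. Rows without a settled identifier stayed unnamed in the fits, the adjustment of p-values and the shares over all rows. Values of single-transcript genes have at most 6 decimals: within 150 ranks of each of the 7 genes, decimals and transcript number fitted for 93.0% to 97.7% of identifiers at the offset used, and for at most 63.1% at any of 10 others.

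Rows with FPKM of at least 1 in 2 or more libraries were tested with limma 3.58.1 (R 4.3.3, lmFit, eBayes with trend) on log2(FPKM + 1), two-sided, without covariates. edgeR, the study's tool, needs counts. The table holds no read counts, and low values showed no single read step in each library, so no counting error was given. The study states reads per library, which were not used here. With 3 mice per genotype the spread between mice limits precision. Single comparisons used exact permutation tests (Python 3.11.15, scipy 1.17.1). Members, related genes and markers were chosen with earlier results of these data known. Genes were named by a rule: the 7 genes, Enpp7, in each related group the 3 with the highest mean FPKM and any called, and for each of the 7 the 3 most like it. Numb, Abca7, Soat1 and Mylip fall outside this rule and were chosen after their values were seen, as were the position markers Lct, Dcxr and Clca4b. The markers Olfm4, Mki67, Top2a, Cdk1 and Trac were also named after their values were seen. Of 86 marker genes in 13 lists 59 could be read, none of the 4 of endothelium. Pancreatic acinar genes (2 of 7) summed to 1.08 to 14.5 FPKM, smooth muscle genes (3 of 6) to 10.6 to 33.6 FPKM, B and plasma cell genes (4 of 6) to 596 to 1171 FPKM. Rab11fip2, Arl4c, Abcg1 and Pltp were not analysed here.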

Additional observations from a re-analysis of the deposited data

How the results depend on the processing

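No paired analysis was possible because the labels do not say which KO mouse belongs to which WT mouse. The count of 0 of the 7 genes and of 0 related genes held under all 16 alternatives, with adjusted p-values of the 7 genes from 0.105 to 1.00. Fold changes of Npc1l1 and Abcg8 kept their sign in all of them, and the difference of Npc1l1 from Abcg5 and Abcg8 in all 8. Over all rows 0 were called at pseudocounts of 0.1 and 0.01 (1636 and 1619 at an unadjusted p-value under 0.05), 2 with sample weights, 3 without K82S and W89S, and 0 to 1184 when each library was left out, the last without K82S. Of 110 fold changes of the 7 genes under alternatives 20 turned their sign, and the cause was not tested. The settings that change only the filter on low values cannot move a fold change, and they are counted among the 110. With equal summed FPKM Abca1 and Nr1h3 were at 0.14 and 0.13, with median-ratio scaling at 0.061 and 0.033, with sample weights at 0.33 and 0.044 and without K82S and W89S at 0.46 and 0.20. With scaling to epithelial structure genes Abcg5 and Soat2 were at -0.15 and -0.031, and with the position score as covariate Scarb1 and Abca1 were at 0.030 and 0.39. The settings without both K82S and W89S and with the covariate were chosen after seeing the data. Leaving out 1 library gave -0.47 to 0.71 for Abca1, -0.22 to 0.12 for Nr1h3, -0.062 to 0.16 for Abcg5, -0.10 to 0.48 for Soat2 and -0.59 to -0.044 for Scarb1. Scaling moved the median of all rows from -0.061 to 0.082 (equal sums) and to -0.21 (epithelial genes). Relative to that median Npc1l1 stayed at 0.53 to 0.61, Abcg8 at 0.31 to 0.39, Soat2 at 0.18 to 0.26, Abcg5 at 0.063 to 0.14, Abca1 at 0.032 to 0.058, Nr1h3 at -0.019 to 0.044 and Scarb1 at -0.22 to -0.10. Each scaling divides a library by 1 factor and so shifts nearly all rows alike. The relative values were therefore nearly fixed in advance and do not test the turns of sign. Without K82S and W89S the Pearson correlation with the position score was -0.75 for Npc1l1, -0.64 for Abcg5, -0.69 for Abcg8, -0.75 for Soat2, -0.044 for Abca1 and -0.23 for Nr1h3. Scarb1 gave no value without K86S or W83S.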
